A study of Mus musculus with 20 samples.

Results

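Polysomal RNA from control mouse brain was compared between postnatal day 7 and postnatal day 5, in 5 of the 20 libraries of the series. The libraries were chosen by their labels: control genotype, polysomal RNA, and either the early-symptomatic stage (day 5, 2 mice) or the late-symptomatic stage (day 7, 3 mice). The names of the stages refer to the SMA (spinal muscular atrophy) littermates, since the study describes the controls as phenotypically normal. Of the 45700 genes in the deposited table, 21943 were nuclear protein-coding genes, 13055 of these averaged 1 FPKM or more across the 5 libraries, and 12987 were also above 0 FPKM in every one of them and were tested. FPKM is the number of fragments per kilobase of transcript in a library of fixed size, so levels can be compared between genes per length.

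The mice were on a congenic FVB background. Control mice were heterozygous littermates (Smn-/+; SMN2tg/0), so they also carry the human SMN2 transgene and have lost 1 copy of mouse Smn, while SMA mice of the “Taiwanese” model are Smn-/-; SMN2tg/0. Brains were lysed, the cytoplasmic lysate was run on a sucrose gradient, and RNA was taken either from the pooled polysomal fractions or from all fractions (total RNA). The series calls its replicates biological, 2 for day 5 and 3 for day 7. All 10 brain markers were above 0 FPKM in every library, among them Snap25 (a synaptic membrane protein of neurons) at 264 and 257 FPKM on day 5 and 416, 417 and 328 FPKM on day 7.

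Sex largely coincided with age in these mice. The Y-linked helicase gene Ddx3y was listed at 27.8 and 22.2 FPKM in the day 5 libraries and at 0.06, 0.04 and 21.1 FPKM in the day 7 libraries, while Xist, the RNA that silences one X chromosome in females, stood at 0.01 and 0.01 FPKM on day 5 and at 2.54, 1.59 and 0.02 FPKM on day 7. Both day 5 mice were therefore male by expression, day 7 mice 1 and 2 were female, and day 7 mouse 3 was male. The total RNA libraries of the same replicate numbers showed the same sexes. Age and anything that was done separately for the mice of the 2 ages, such as the preparation of lysates or libraries, cannot be told apart here.

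Ribosomes that translate an mRNA together form a polysome, so RNA from polysomal fractions is a readout of messages under translation, weighted by their abundance. In the first postnatal week, the mouse brain moves from making neurons to wiring them: progenitor divisions decline in most regions outside the cerebellum and the olfactory system, synapses form in large numbers, receptor subunits are exchanged for their mature partners, and glial cells expand before myelin is laid down. Because brain was sampled in bulk, fewer cells of a type and less RNA per cell cannot be told apart.

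Between day 5 and day 7, 4735 genes (36.5%) changed, 2309 of them higher (17.8%) and 2426 lower (18.7%) on day 7 (limma on log2(FPKM + 0.1), Benjamini-Hochberg adjusted p under 0.05). Genes of synaptic transmission, ion channels and neuronal excitability were among those that rose, while most of the listed genes of the mitotic cycle (34 of 48) and most replication-dependent histones (39 of 57) fell. The median change over all genes tested was -0.06, and the median size of a change was 0.33 on the log2 scale. A change of more than 2-fold beside the adjusted p was met by 544 genes that rose and 228 that fell. In 63.7% of the genes tested, all day 7 values lay on the same side of both day 5 values. Changes are differences of log2(FPKM + 0.1) and understate the change of weakly expressed genes.

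The 5 libraries grouped by age. Across genes, libraries of the same age correlated with r between 0.9862 and 0.9885, and libraries of different ages with r between 0.9422 and 0.9705. Day 5 mouse 2 and day 7 mouse 3, both male, were the closest pair across ages, and day 7 mouse 3 was the closest of the 3 day 7 mice to either day 5 mouse. With sex as a term in the model, the day 7 level rests on mouse 3 alone. Of 12987 genes, 1272 were called in that fit (854 higher and 418 lower). List counts given below for the sex term or without a library have all genes called in the same fit as their background. The shares of 17.8% and 18.7% belong to the main fit. Leaving out day 5 mouse 1 left 1874 genes, and leaving out day 7 mouse 2 left 2844.

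Among 44 tested genes of synaptic vesicle release, 27 rose (61.4%, against 17.8% of all genes tested) and none fell, with a median change of 0.53 (-0.06 over all genes). Rab3a, a small GTPase on synaptic vesicles, stood at 142 and 154 FPKM on day 5 and at 353, 309 and 302 FPKM on day 7. All 3 day 7 libraries were above both day 5 libraries, and the change was 1.11 ± 0.12 (log2, SE, adjusted p = 0.00087). Snap25, a SNARE protein that drives vesicle fusion, rose by 0.56 ± 0.14 (adjusted p = 0.016) with no overlap between the ages, although day 7 mouse 3 was lower than the other day 7 mice. Syp, which encodes the vesicle protein synaptophysin, had 538 and 427 FPKM on day 5 and 670.5, 519 and 477 FPKM on day 7. Its groups overlapped and it did not pass the test (adjusted p = 0.397). The sex term left 16 of the 44 genes called higher and none lower, against 854 and 418 of all 12987 genes tested.

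The range within this group was wide, from -0.27 for Slc17a6 to 1.57 for Slc17a7. These genes encode 2 vesicular glutamate transporters, and they are named here after their values were seen, as are Vamp2, Pclo and Bsn. Slc17a7 was listed at 28.6 and 35.1 FPKM on day 5 and at 126, 95.2 and 69.7 FPKM on day 7, whereas Slc17a6 was at 68.4 and 57.2 and then at 45.7, 57.4 and 53.7 FPKM. Slc17a7 rose in all 3 day 7 mice (adjusted p = 0.00179), with its lowest day 7 value in mouse 3, and Slc17a6 did not pass the test (adjusted p = 0.161). The vesicle SNARE gene Vamp2 rose by 1.53 ± 0.15, and the active zone scaffolds Pclo and Bsn rose by 1.44 ± 0.12 and 1.31 ± 0.14.

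**Figure D1:**
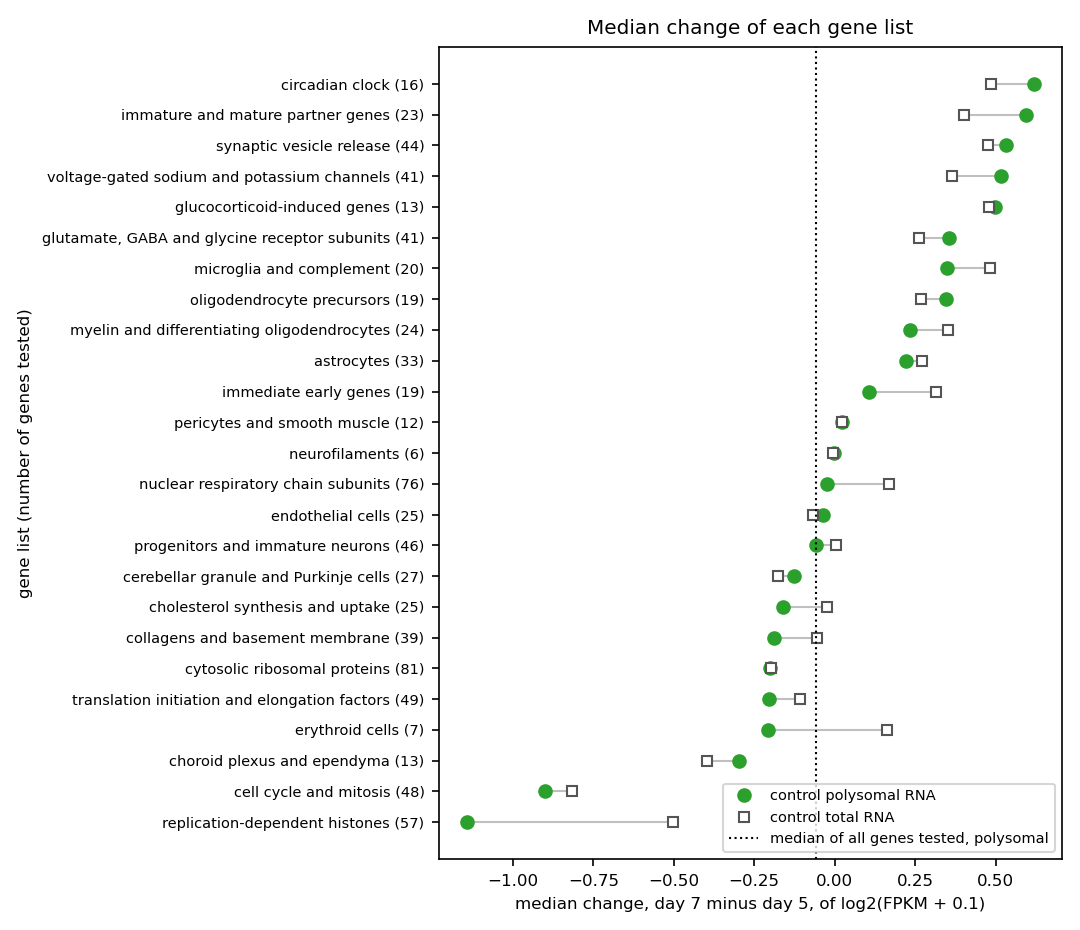
Median change between day 5 and day 7 (horizontal axis, log2 scale) for each of 25 gene lists (vertical axis, with the number of genes tested in polysomal RNA). Filled circles are control polysomal RNA, open squares control total RNA, and the dotted line is the median of all genes tested in polysomal RNA (-0.06). Histone and cell cycle genes lie at the low end (-1.14 and -0.90 in polysomal RNA), and clock, partner, vesicle and channel genes at the high end (0.52 to 0.62).

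Of 41 subunits of glutamate, GABA and glycine receptors, 20 rose (48.8%, against 17.8% of all genes tested), 1 fell and 20 did not pass the test, with a median of 0.35. Grin2a (GRCm38 chr16:9567898-9995560), the NMDA receptor subunit that gains weight as synapses mature, had 7.99 and 9.09 FPKM on day 5 and 24.9, 22.4 and 14.6 FPKM on day 7. Every day 7 value was above the day 5 values, with mouse 3 the lowest of the day 7 mice, and the change was 1.23 ± 0.21 (adjusted p = 0.00367). Grin2b, the subunit that prevails in the newborn forebrain, was more abundant throughout, at 41.4 and 54.8 FPKM on day 5 and 112, 129 and 109 FPKM on day 7. It rose by 1.29 ± 0.15 (adjusted p = 0.000948), a size close to that of Grin2a, with no overlap between ages. Grin2b shares its listed locus with 6 other genes. Gria4, an AMPA receptor subunit, was the 1 member that fell, from 52.6 and 49.9 FPKM to 34.5, 42.04 and 39.95 FPKM (-0.40 ± 0.12, adjusted p = 0.0335).

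Among subunits of inhibitory receptors, Gabra2, a GABA-A receptor alpha subunit more typical of the young brain, rose and was at 21.7 and 28.1 FPKM on day 5 and 39.2, 43.02 and 36.8 FPKM on day 7 (0.68 ± 0.14, adjusted p = 0.00804), without overlap between ages. Glrb, the beta subunit of glycine receptors, rose by 0.35 ± 0.11 (adjusted p = 0.0398). Gabbr1, which encodes a subunit of the metabotropic GABA-B receptor, had the highest level of the subunits that did not pass, at 194 and 183 FPKM and then 238, 254 and 222 FPKM (adjusted p = 0.0513). Under the sex term, 4 of the 41 subunits were called higher, against 854 of all 12987 genes tested. Gabra2, with a change of 0.57 there, was not among the 4 (adjusted p = 0.106). Without day 5 mouse 1, 11 subunits were called higher.

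Voltage-gated sodium and potassium channels and related subunits also leaned upward, with 21 of 41 higher (51.2%, against 17.8% of all genes tested), none lower and a median of 0.52. Scn8a, the sodium channel of mature axon initial segments and nodes, stood at 21.2 and 29.1 FPKM on day 5 and at 50.03, 62.5 and 45.4 FPKM on day 7. These values did not overlap, and the gene rose by 1.07 ± 0.18 (adjusted p = 0.00327). Scn1a had 12.04 and 12.5 FPKM on day 5 and 11.4, 14.1 and 10.5 FPKM on day 7, and Scn3a, a sodium channel of the embryonic brain, 37.3 and 40.2 and then 31.3, 34.7 and 34.02 FPKM. Neither passed the test (adjusted p = 0.826 and 0.155). Kcnc1, a potassium channel of fast-spiking neurons, rose by 0.88 ± 0.12 and Kcna6, a delayed rectifier, by 0.59 ± 0.12 (adjusted p = 0.00177 and 0.00651). Kcnc1 went from 6.60 and 7.82 FPKM to 12.8, 13.4 and 13.6 FPKM, with the day 7 mice close together. Of the 41 genes, 8 were called higher with the sex term and 13 without day 5 mouse 1.

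Partner genes that replace one another as neurons mature were followed as a list of their own, of which 14 of 23 rose (60.9%, against 17.8% of all genes tested), 3 fell (13%, against 18.7%) and 6 did not pass, with a median of 0.59. With the sex term 7 were called higher and none lower, and without day 5 mouse 1 there were 9 and none. Slc12a5 encodes KCC2, the transporter that lowers chloride in mature neurons, and was at 50.5 and 51.2 FPKM on day 5 and 77.3, 80.4 and 73 FPKM on day 7. Slc12a2, which encodes the chloride importer NKCC1 of immature neurons, went the other way, from 15.6 and 14.6 FPKM to 10.1, 12.5 and 12.1 FPKM. Both moved without overlap between ages, Slc12a5 by 0.59 ± 0.11 and Slc12a2 by -0.39 ± 0.13 (adjusted p = 0.00479 and 0.0474). Neither passed with the sex term (adjusted p = 0.0949 and 0.308), with the same signs.

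Scaffolds and kinases of the postsynaptic density belong to the same list. Dlg4 (PSD-95, chr11:70017085-70045532), the main scaffold of mature excitatory synapses, was at 88.8 and 98.2 FPKM on day 5 and 291, 267 and 222 FPKM on day 7. It rose by 1.47 ± 0.14 (adjusted p = 0.000681), and its partner Dlg3 (SAP102), a scaffold of young synapses, by 0.47 ± 0.12 (adjusted p = 0.0188). Camk2a, the alpha subunit of CaM kinase II, had 13.4 and 30.6 FPKM on day 5 and 97, 89.3 and 60.2 FPKM on day 7. The day 5 mice differed more than 2-fold from each other, yet both lay below every day 7 mouse, and the gene rose by 1.98 ± 0.32 (adjusted p = 0.00295). Camk2b, the subunit that precedes it in development, was at 147 and 145 and then 217, 185 and 166 FPKM and did not pass the test (adjusted p = 0.0658).

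**Figure D2:**
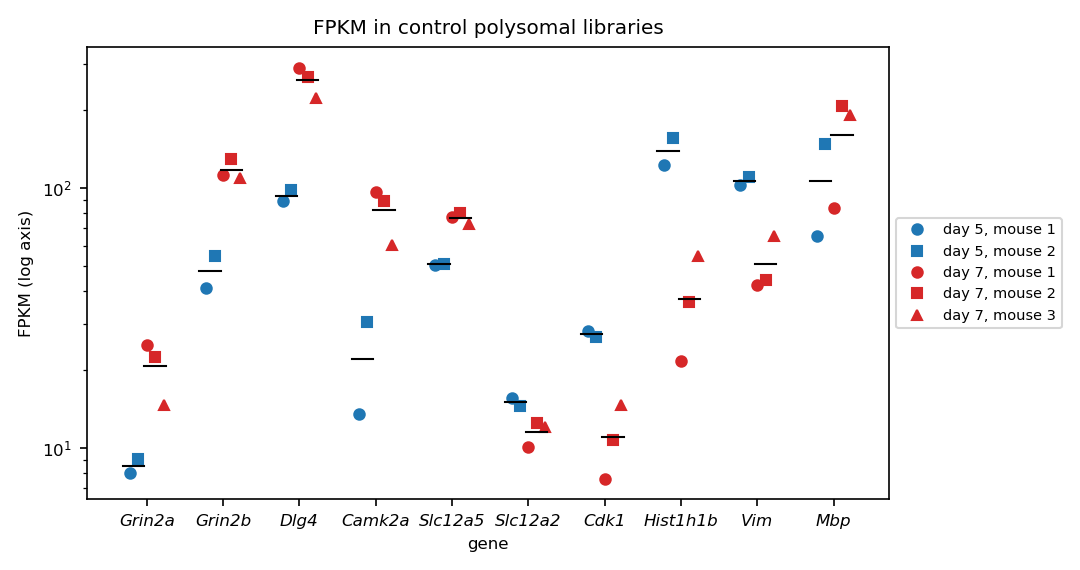
FPKM (vertical log axis) of 10 genes in each control polysomal library, day 5 in blue and day 7 in red, with 1 symbol per mouse and a black line at the mean of each age. Grin2a, Grin2b, Dlg4, Camk2a and Slc12a5 lie higher and Slc12a2, Cdk1, Hist1h1b and Vim lower on day 7 without overlap, whereas the values of Mbp overlap.

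Other partner genes included growth factors, filament proteins and glial genes. Igf1 and Igf2 encode insulin-like growth factors, and Igf1 rose from 5.54 and 8.29 to 12.1, 11.1 and 11.1 FPKM (0.74 ± 0.17, adjusted p = 0.0115). Igf2 rose less, by 0.38 ± 0.13 (adjusted p = 0.0447). Ina and Nefh, which encode alpha-internexin and the heavy neurofilament chain, rose by 0.79 ± 0.11 and 0.62 ± 0.16 (adjusted p = 0.00169 and 0.0165), and Nfasc, a cell adhesion protein of the axon initial segment and node, by 0.83 ± 0.12 (adjusted p = 0.00201). Pkm (pyruvate kinase) fell by 0.50 (adjusted p = 0.0421) and Fabp7, a fatty acid binding protein of radial glia and young astrocytes, by 0.73 (adjusted p = 0.0121). The remaining partners did not pass, among them Aqp4 (a water channel of astrocytes, adjusted p = 0.663) and the glycine receptor subunits Glra1 and Glra2 (adjusted p = 0.755 and 0.0827).

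Of the called genes that averaged 5 FPKM or more and did not overlap between ages, the 10 largest rises went from 2.05 to 3.06. Prrt1 (chr17:34629533-34633126, ENSMUSG00000015476.6), an AMPA receptor auxiliary protein, was listed at 0.67 and 1.52 FPKM on day 5 and at 10.8, 9.91 and 7.34 FPKM on day 7 (3.06 ± 0.30, adjusted p = 0.000681). Cdk5r2, an activator of the neuronal kinase Cdk5, rose from 5.49 and 6.08 to 39.9, 32.2 and 25.7 FPKM, and Map1a, a microtubule protein of mature neurons, from 21.3 and 31.2 to 126, 110.1 and 103 FPKM. In each of them the day 7 mice lay far above both day 5 mice. Clip3, a cytoplasmic linker protein, Gng3, a G protein gamma subunit of neurons, the transcription factor Camta2, the repressor Cic and the respiratory chain subunit Uqcrq rose by between 2.05 and 2.21. Lin37 and Hypk (2.59 and 2.14) share their listed loci with 3 and 4 other genes, Map1a with 2, and Cdk5r2 and Gng3 with 1 each. Such sharing was met in 52 of the 136 genes named by rule, and their values are less certain, since reads of overlapping genes may have been divided between them.

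Most cell cycle genes went down. Of 48 tested, 34 fell (70.8%, against 18.7% of all genes tested), none rose and 14 did not pass, with a median of -0.90. With the sex term the median was -0.52. Cdk1, the kinase that drives entry into mitosis (chr10:69336635-69352938), was at 28.2 and 26.8 FPKM on day 5 and at 7.62, 10.7 and 14.6 FPKM on day 7. Pcna, the sliding clamp of DNA replication, was at 66.95 and 56.4 and then at 33.8, 38.9 and 42.7 FPKM. Both were lower in every day 7 mouse, least so in mouse 3, and fell by 1.37 and 0.68 (adjusted p = 0.00344 and 0.00738). Named after their values were seen, the spindle checkpoint kinase gene Bub1b and the kinetochore gene Cenpf had the largest falls of the list (-1.65 ± 0.30 and -1.46 ± 0.22). Some members did not pass the test. Mki67, also named afterwards, stood at 3.01 and 6.02 FPKM on day 5 and 3.03, 4.64 and 6.37 FPKM on day 7 (adjusted p = 0.883), and the maintenance methyltransferase Dnmt1 at 19.03 and 18.2 and 16.6, 15.04 and 17.4 FPKM (adjusted p = 0.22).

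Replication-dependent histones, which package newly made DNA and are transcribed mainly in S phase, had the lowest median of the 25 lists. Of 57 tested, 39 fell (68.4%, against 18.7% of all genes tested), 1 rose and 17 did not pass, with a median of -1.14. Hist1h3h (ENSMUSG00000101355.1, chr13:21717659-21718069), an H3 gene of the large cluster on chromosome 13, was at 42.4 and 27.3 FPKM on day 5 and at 1.31, 1.42 and 1.68 FPKM on day 7. Hist1h1b, a gene of the linker histone H1, was at 122 and 156 FPKM on day 5 and 21.6, 36.4 and 54.6 FPKM on day 7. Hist2h2bb, an H2B gene, was at 828 and 795 and then 318, 329 and 454 FPKM, at a locus listed with 3 other gene records. Hist2h3b, an H3 gene of that locus, had the largest fall by the same rule (-5.61 ± 0.39), from 27.6 and 22.3 FPKM to 0.17, 0.51 and 0.7 FPKM. None of these genes overlapped between ages, and day 7 mouse 3 had the highest day 7 value of each. The changes of Hist1h3h, Hist1h1b and Hist2h2bb were -4.45 ± 0.20, -1.98 ± 0.32 and -1.16 ± 0.17 (adjusted p = 4.09e-05, 0.00289 and 0.00197).

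Histone genes are near-identical copies of one another, so fragments can be split among them and the value of a single copy is uncertain. Hist2h3c2 was the 1 copy that rose, from 0.48 and 0.62 to 1.69, 1.25 and 1.74 FPKM. Hist1h4d, the most abundant copy that did not pass, was at 1137 and 1148 FPKM on day 5 and 742, 774 and 1077 FPKM on day 7 (adjusted p = 0.0873). Taken per library, the mean deviation of the 57 histones from their 5-library means was 0.74 and 0.78 on day 5 and -0.75, -0.79 and 0.02 on day 7. For the 48 cell cycle genes it was 0.37 and 0.63 on day 5 and -0.65, -0.36 and 0.00 on day 7. In polysomal RNA, the 2 female day 7 mice were thus far below the day 5 mice, and the male one lay between them. In total RNA the histone values were 0.46 and 0.33 on day 5 and -0.55, -0.004 and -0.24 on day 7. There the male day 7 mouse lay between the 2 females. The cell cycle values in total RNA were 0.23 and 0.675 on day 5 and -0.59, -0.39 and 0.08 on day 7. In the model with sex, 21 histones and 10 cell cycle genes were called lower, with medians of -0.55 and -0.52. Of all 12987 genes tested, 418 were called lower there. Without day 5 mouse 1, 24 histones and 15 cell cycle genes were called lower, and 18 cell cycle genes without day 5 mouse 2.

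To show what the genes that fell have in front of them, the 100 bases before the annotated start are given for the 3 histones above and for Cdk1, 5′ to 3′ on the strand of the gene (RefSeq, GRCm38.p6, the same major build as the files). Capitals mark exact matches, on either strand, to CCAAT, to the TATA motif TATAAA, to the octamer ATTTGCAT or to TTTGAA, the core of the cell cycle genes homology region. They lie at chr13:21717528-21717627 (plus strand), chr13:21780626-21780725 (minus strand), chr3:96269600-96269699 (plus strand) and chr10:69352913-69353012 (minus strand).
Hist1h3h: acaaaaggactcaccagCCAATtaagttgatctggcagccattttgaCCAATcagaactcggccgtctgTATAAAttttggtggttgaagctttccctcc
Hist1h1b: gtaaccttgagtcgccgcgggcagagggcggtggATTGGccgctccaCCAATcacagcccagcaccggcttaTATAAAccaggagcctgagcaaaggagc
Hist2h2bb: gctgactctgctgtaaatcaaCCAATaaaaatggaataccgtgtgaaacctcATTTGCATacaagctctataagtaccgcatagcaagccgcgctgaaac
Cdk1: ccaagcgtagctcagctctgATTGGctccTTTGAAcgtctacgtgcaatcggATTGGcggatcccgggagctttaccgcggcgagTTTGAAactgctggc
In the 250 bases before the start, CCAAT was found in 42 of 51 histone promoters matched (82.4%), in 34 of 40 cell cycle promoters (85%) and in 34.5% of the promoters of all 27025 genes in the RefSeq table. TATAAA was found in 51% of the histone promoters, 2.5% of the cell cycle promoters and 13% of all promoters. The octamer was held by 21.6% of the histone promoters, by none of the 40 cell cycle promoters and by 1.61% of all, and TTTGAA by 45.1%, 35% and 16.3%. These counts describe letters, without a test, and say nothing of which factors bind. For each list they cover every tested member with a matched promoter, whether or not it was called lower. For comparison, 26.5% of 34 promoters of vesicle release genes held CCAAT.

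**Figure D3:**
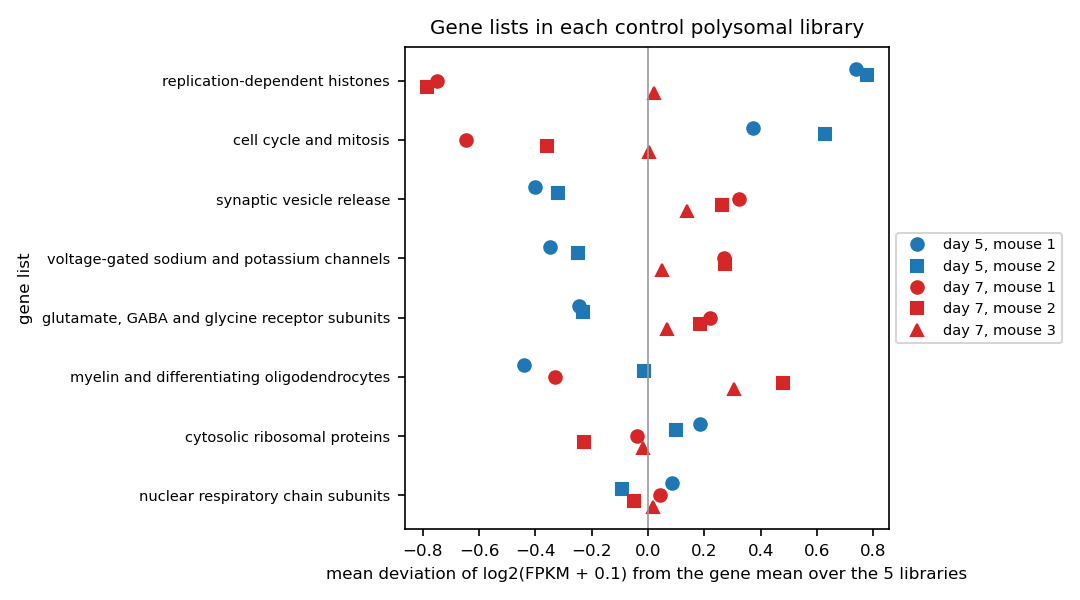
Mean deviation of log2(FPKM + 0.1) from each gene's mean over the 5 control polysomal libraries (horizontal axis) for 8 gene lists (vertical axis), with 1 symbol per mouse, day 5 in blue and day 7 in red. For histone and cell cycle genes, day 7 mouse 3 lies at 0.02 and 0.00, between the day 5 mice and the other day 7 mice, and for myelin genes day 7 mouse 1 (-0.33) lies among the day 5 mice (-0.44 and -0.02).

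Genes of progenitors and immature neurons did not move as a block: 11 of 46 rose (23.9%, against 17.8% of all genes tested), 6 fell (13%, against 18.7%) and 29 did not pass, with a median of -0.06, the same as over all genes. The 6 lower came to 1 with the sex term (7 higher), to 3 without day 5 mouse 1 and to 9 without day 7 mouse 3. Stmn1 (stathmin) and Stmn2 (SCG10), related regulators of microtubules in growing neurons, went opposite ways. Stmn1 was at 1514 and 1423 FPKM on day 5 and 961, 918 and 954 FPKM on day 7, and Stmn2 at 578 and 795 and then 1402, 1532 and 1522 FPKM. Stmn1 fell by 0.64 and Stmn2 rose by 1.13 ± 0.16 (adjusted p = 0.00611 and 0.00178), each without overlap. Tmsb10, an actin-binding thymosin, rose from 304 and 473 to 1267, 998 and 1292 FPKM (adjusted p = 0.00119), while its paralog Tmsb4x, at 2628 and 2401 and then 1966, 2166 and 2183 FPKM, did not pass (adjusted p = 0.164). Vim (vimentin), the intermediate filament of radial glia, was not a member of this list but of the neurofilament list. It fell from 103 and 111 to 42.4, 44.3 and 65.7 FPKM (-1.09 ± 0.18, adjusted p = 0.00354).

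Cerebellar granule and Purkinje cell genes were mixed, with 3 of 27 higher, 6 lower and a median of -0.13, and both shares (11.1% and 22.2%) were close to those of all genes tested (17.8% and 18.7%). Cbln1, a synaptic organizer released by granule cells, fell by 0.63 (adjusted p = 0.0428). The 27 genes were lowest in day 7 mouse 1, in both fractions: their mean deviation in polysomal RNA was -0.04 and 0.29 on day 5 and -0.46, -0.02 and 0.22 on day 7, and in total RNA 0.06 and 0.26 and then -0.46, -0.06 and 0.19. None was called lower with the sex term, where the median was 0.13. Without one library the number lower was 2 (day 5 mouse 1, day 7 mouse 1 or day 7 mouse 2), 3 (day 5 mouse 2) or 9 (day 7 mouse 3), with medians between -0.29 and -0.006.

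Glial lists had medians above 0. Oligodendrocyte precursor genes rose in 9 of 19 cases (47.4%, against 17.8% of all genes tested) and fell in 1, with a median of 0.35, and 2 were called higher with the sex term, 3 without day 5 mouse 1, 4 without day 7 mouse 2 and 5 without day 7 mouse 1. Ptprz1, a receptor phosphatase of precursors, was at 101 and 97.05 FPKM on day 5 and 156, 169 and 153 FPKM on day 7 (0.69 ± 0.11, adjusted p = 0.00304), and Olig1, a lineage transcription factor, rose by 0.34 ± 0.11 (adjusted p = 0.0392). Genes of myelin and differentiating oligodendrocytes rose in 6 of 24 cases (25%, against 17.8% of all genes tested), with a median of 0.23. None was lower (against 18.7% of all genes tested). Of the 32 listed genes 8 were not tested, being too low or not matched in the table. Bcas1, a marker of early myelinating cells, was at 9.59 and 11.97 FPKM on day 5 and 13.6, 24.2 and 19.8 FPKM on day 7 (0.80 ± 0.22, adjusted p = 0.0244).

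Mbp, which encodes myelin basic protein and was the most abundant myelin gene, stood at 65.1 and 148 FPKM on day 5 and at 83.6, 208 and 191 FPKM on day 7. Its groups overlapped, since day 7 mouse 1 lay below day 5 mouse 2, and it did not pass the test (adjusted p = 0.284). The same mouse was low in total RNA, where Mbp had 76.8 and 133 FPKM on day 5 and 68.1, 172 and 184 FPKM on day 7. The myelin median was 0.49 with the sex term and 0.35 after the length correction, against 0.23 above. It also moved with single mice. It was 0.55 without day 7 mouse 1 (10 of 24 called higher) and 0.45 without day 5 mouse 2 (7 higher), but 0.036 without day 5 mouse 1 and 0.024 without day 7 mouse 2 (4 higher in each), and 0.13 without day 7 mouse 3 (6 higher). Day 7 mouse 1 was also the mouse with low cerebellar genes, and whether the 2 are related was not tested.

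Astrocyte genes rose in 11 of 33 cases (33.3%, against 17.8% of all genes tested) and fell in 4 (12.1%, against 18.7%), with a median of 0.22, and 5 were called higher and none lower both with the sex term and without day 5 mouse 1. Slc1a2, the main glutamate transporter of mature astrocytes, was at 103 and 102 FPKM on day 5 and 232, 205 and 143 FPKM on day 7, a rise of 0.88 ± 0.19 (adjusted p = 0.00927). Apoe, the lipid carrier of astrocytes, was far more abundant and fell by 0.60, from 1766 and 1421 to 1075, 1019.8 and 1040.2 FPKM (adjusted p = 0.0125). Clu (clusterin) rose by 0.49 ± 0.13 (adjusted p = 0.0222), and Cst3 (cystatin C) was at 1174 and 1228 and then 1174, 1124 and 1168 FPKM (adjusted p = 0.736). Microglial and complement genes rose in 7 of 20 cases (35%, against the same 17.8%) with none lower and a median of 0.35, which came to 3 and 0.10 with the sex term. P2ry12, a purinergic receptor of homeostatic microglia at a locus listed with 9 other genes, rose by 1.04 ± 0.17 and the signalling adaptor Tyrobp by 0.60 ± 0.12 (adjusted p = 0.00289 and 0.00732).

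In the lists of the translation machinery more genes fell than rose. Of 81 cytosolic ribosomal protein genes 24 fell (29.6%, against 18.7% of all genes tested) and 2 rose, with a median of -0.20, and of 49 initiation and elongation factors 13 fell (26.5%) and 5 rose, with the same median. Rpl13a was at 1736 and 899 FPKM on day 5 and 630.4, 525 and 663 FPKM on day 7, and Rps21 at 1005 and 977 and then 707, 593 and 694 FPKM. They fell by 1.05 and 0.58 (adjusted p = 0.0132 and 0.0114), but the day 5 mice differed from each other widely in Rpl13a, which shares its locus with 6 other genes. Rps29 went against the list, from 430.5 and 599.5 to 1358, 1188 and 1363 FPKM (1.36 ± 0.17, adjusted p = 0.00113). Eef1a2, the elongation factor 1 alpha form of mature neurons and muscle, rose by 0.49 ± 0.13 (adjusted p = 0.0184), while its ubiquitous paralog Eef1a1 was at 2279 and 1895 and then 2178, 1592 and 1885 FPKM (adjusted p = 0.5). In the model with sex, 4 ribosomal protein genes and none of the factors were called lower, against 418 of all 12987 genes tested. Without day 5 mouse 1 there were 10 and none, and without day 7 mouse 2 there were 15 and 3, and the factors had 7 without day 7 mouse 1, 6 without day 7 mouse 3 and 20 without day 5 mouse 2.

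Nuclear genes of the respiratory chain were called in both directions, 9 of 76 higher and 11 lower with a median of -0.02, and both shares (11.8% and 14.5%) were below those of all genes tested. The split moved with single libraries, to 5 higher and 1 lower without day 5 mouse 1 and to 9 and 19 without day 5 mouse 2, and the sex term left 1 higher and none lower. Cox8a, a subunit of cytochrome c oxidase, rose by 0.50 ± 0.12 and Atp5e, a subunit of ATP synthase, fell by 0.51 (adjusted p = 0.0134 and 0.028). Ndufa4, the most abundant subunit that did not pass, stood at 1014 and 1086 FPKM on day 5 and 1247, 1226 and 1226 FPKM on day 7 (adjusted p = 0.163). In control total RNA, 28 of the 76 genes were higher and 8 lower, with a median of 0.17. Of all 12976 genes tested there, 2075 were higher and 2019 lower. In the test of the difference between the fractions, 0 of the 76 passed.

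The change moved with transcript length. Over the 12955 genes with a length (99.8%, longest transcript of the gene), cut into 5 equal groups, the median change was -0.19 in the shortest group (165 to 2020 nucleotides) and 0.12 in the longest (5430 to 123179 nucleotides), and Spearman's rho across genes was 0.228. In the shortest group 326 genes rose and 679 fell, and in the longest 689 rose and 214 fell. The relation was weaker in control total RNA (rho 0.121) and of the opposite sign in SMA polysomal RNA (rho -0.103), and for GC content in control polysomal RNA rho was 0.044. Its part in the results was not tested beyond a correction that removes a smooth curve on length from each library. After that correction 4571 genes were called (2437 higher and 2134 lower), and the genes of the respiratory chain turned from 9 higher and 11 lower to 17 and 5. Ribosomal protein genes then had 9 higher and 21 lower with a median of -0.06, whereas histones (36 lower), cell cycle genes (33 lower), vesicle genes (26 higher) and channels (24 higher) had counts close to those above.

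**Figure D4:**
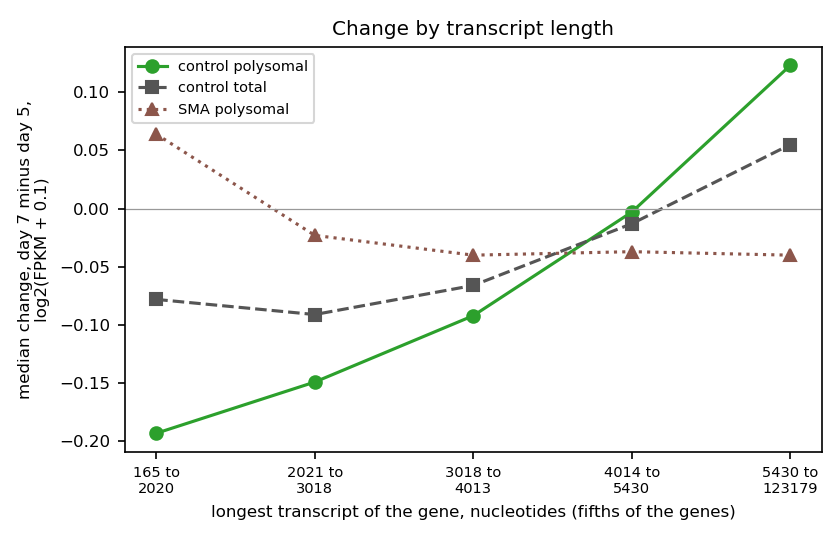
Median change between day 5 and day 7 (vertical axis, log2 scale) in 5 equal groups of genes ordered by the length of their longest transcript (horizontal axis, nucleotides), for control polysomal, control total and SMA polysomal RNA. Control polysomal RNA goes from -0.19 in the shortest to 0.12 in the longest group, and SMA polysomal RNA from 0.06 to -0.04.

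Total RNA of the same control mice was set beside polysomal RNA to see whether the change at the polysomes differed from that of the transcriptome. In total RNA, 4094 of 12976 genes (31.6%) changed, 2075 higher and 2019 lower, and 244 of them by more than 2-fold. Polysomal and total changes correlated across genes with r = 0.827, which is a description, since both fractions come from the same mice with the same sexes. The median size of a change was 0.33 on polysomes and 0.25 in total RNA. In the test of the difference between the fractions no gene (0%) passed with limma, and at an unadjusted p under 0.05 there were 1360 genes, 895 with a larger value (polysomal minus total) and 465 with a smaller one. Leaving out polysomal day 5 mouse 2 gave 436 genes. Since the numbers were taken to pair the fractions of a mouse, the test was also run with each mouse as a block. Again no gene passed with limma (lowest adjusted p = 0.133, with 1884 genes at an unadjusted p under 0.05).

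Grin2a, Dlg4 and Cdk1 changed in the same direction in both fractions. Grin2a rose by 1.23 ± 0.21 on polysomes and by 1.18 ± 0.16 in total RNA, Dlg4 by 1.47 ± 0.14 and 0.80 ± 0.07, and Cdk1 changed by -1.37 ± 0.23 and -1.06 ± 0.33. Camk2a had 28.2 and 38.3 FPKM in total RNA on day 5 and 66.3, 64.2 and 59.9 FPKM on day 7, a change of 0.94 ± 0.13 against 1.98 ± 0.32 on polysomes (adjusted p of the difference = 0.441). Histones had a median of -1.14 on polysomes and -0.50 in total RNA. Hist1h2al, an H2A gene, was at -2.31 ± 0.30 and -0.50 ± 0.55 on polysomes and in total RNA (adjusted p of the difference = 0.433), and Igf2 had opposite signs (0.38 ± 0.13 and -0.45 ± 0.10, adjusted p of the difference = 0.147).

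**Figure D5:**
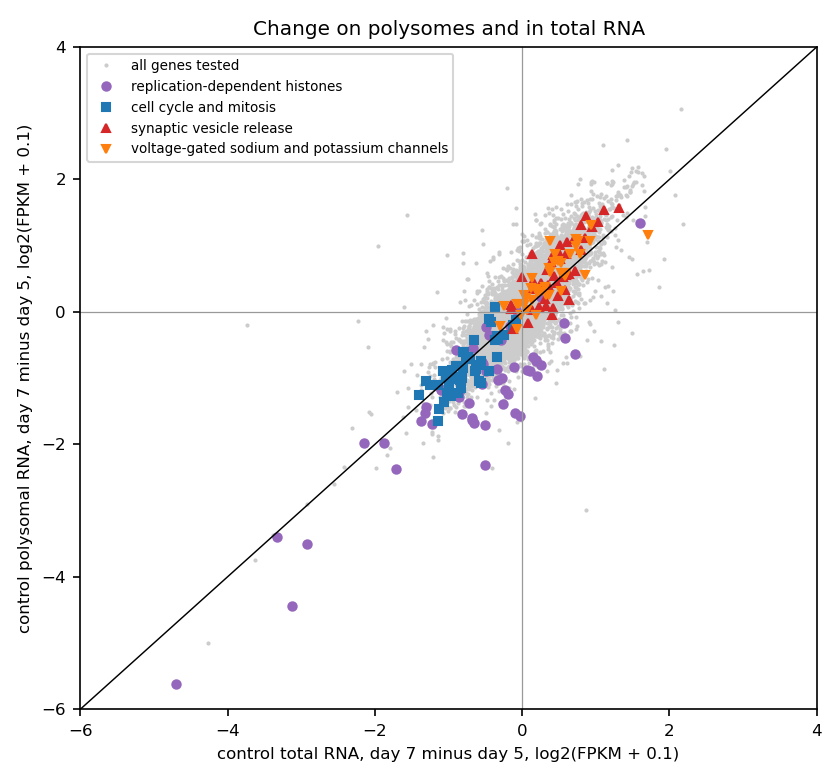
Change between day 5 and day 7 in control polysomal RNA (vertical axis) against control total RNA (horizontal axis), both on the log2(FPKM + 0.1) scale, with 1 point per gene and the diagonal as a line of equal change. Cell cycle genes and vesicle release genes lie near the diagonal, while many histones lie below it (medians -1.14 and -0.50).

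SMA polysomal libraries of the same ages show how far the change between the ages was met in the mutant. Their mice were female and male on day 5 and male, male and female on day 7, so age and sex coincided less than in the controls. The change in SMA correlated with that in controls across genes with r = 0.780. No gene (0%) passed the test of the difference with limma, and 1798 of 12982 had an unadjusted p under 0.05, 1061 with a larger value (SMA minus control) and 737 with a smaller one. Without control day 5 mouse 2 there were 470 genes. In SMA, the change of Grin2a was 0.74, that of Dlg4 1.12, of Slc12a5 0.36, of Cdk1 -0.38 and of Hist1h3h -2.64, all of the sign seen in controls. Other named genes were near 0 in SMA: Ttr was at -0.03 (-0.93 in controls), Rps21 at 0.001 (-0.58) and Nr4a2 at -0.06 (0.75), each with an adjusted p of the difference of 0.304. The median of the 48 cell cycle genes was -0.90 in controls and -0.59 in SMA, that of the 57 histones -1.14 and -0.28, and that of the 44 vesicle genes 0.53 and 0.39. Medians of other lists differed in sign, with ribosomal protein genes at -0.20 and 0.10, respiratory chain genes at -0.02 and 0.36 and cerebellar genes at -0.13 and 0.11. Control medians of the respiratory chain and cerebellar lists changed sign under alternatives. The respiratory chain median was 0.12 after the length correction and 0.09 without day 5 mouse 1, and the cerebellar median was 0.13 with the sex term. The choroid plexus and ependymal list was at -0.30 and -0.03. Scn8a (0.08 in SMA, 1.07 in control) and Dlg3 (0.01 and 0.47) were nearer to 0 in SMA, with adjusted p of the difference of 0.304 and 0.305.

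Markers of other cell types that a brain lysate can hold also moved. Choroid plexus markers summed to 1004 and 980.4 FPKM on day 5 and to 583, 525 and 470.1 FPKM on day 7, nearly all of it Ttr (transthyretin, 977 and 956 and then 563.95, 509 and 455 FPKM). Ttr fell by 0.93 (adjusted p = 0.00194), and Folr1, the folate receptor of the same epithelium, by 0.76 (adjusted p = 0.00905), and Clic6, a chloride channel protein, fell by 0.84 (adjusted p = 0.00825). Kcnj13, a potassium channel, was at 1.82 and 2.28 and then 2.13, 2.31 and 2.46 FPKM and did not pass (adjusted p = 0.48), and Kl, which was too low to be tested, was at 0.68 and 0.84 and then 0.95, 1.01 and 1.04 FPKM, each day 7 value above both day 5 values. Red blood cell markers summed to 1949.9 and 2056 FPKM on day 5 and to 2369, 2319 and 2542 FPKM on day 7. Within that sum Hba-a1 rose from 419 and 731 to 1247, 1112 and 1320.2 FPKM (adjusted p = 0.0056) while the globin Hbb-bs was at 1262 and 1073 and then 895, 961 and 971 FPKM, and Hba-a1 has a near-identical copy. Markers of meninges and fibroblasts summed to 104 and 111 FPKM on day 5 and to 81.8, 87.4 and 84.3 FPKM on day 7. Of the 5 markers, Col3a1 and Col1a2 fell by 0.92 and 0.49, while Col1a1 (0.26 ± 0.12), Dcn (-0.03 ± 0.14) and Lum (-0.27 ± 0.15) did not pass the test (adjusted p = 0.131, 0.884 and 0.178). The part of these cells in the other results was not tested.

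Among called genes that averaged 5 FPKM or more without overlap between ages, the largest falls outside the histones were uncertain or tied to sex. Uty, a gene on the Y chromosome, was at 11.1 and 10.2 FPKM on day 5 and at 0.25, 0.29 and 8.13 FPKM on day 7, low in the 2 female mice. Npcd, which lies in a locus with 2 other genes, went from 14.1 and 7.77 to 1.65, 0.66 and 1.87 FPKM, and the predicted gene Gm10800 from 36.2 and 11.6 to 2.86, 4.64 and 4.69 FPKM, with more than 2-fold between the day 5 mice.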

How the data were processed

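RNA-seq libraries of total and polysomal RNA were made from mouse brain with a stranded total RNA kit. The authors aligned 100 bp reads with TopHat 2.0.14 to GRCm38.p4 with the Gencode M6 annotation and deposited 1 FPKM value per gene and library, computed with Cufflinks 2.2.1 (versions from the submitters' processing notes). The strand used in counting is not given in the sources used here. The table holds no counts, so the depth behind a value is unknown and the study's CuffDiff test could not be run. A value of 0 can be a failed estimate: 68 genes that averaged 1 FPKM or more were left out for a 0, 56 of them at 1 locus of chromosome 8 listed at 0 in both day 5 libraries.

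Groups and replicate numbers came from the labels. Values were analysed in R 4.3.3 with limma 3.58.1 (lmFit, eBayes with a trend, two-sided) on log2(FPKM + 0.1), with Benjamini-Hochberg adjustment over all genes tested and a call at an adjusted p under 0.05. The day 7 against day 5 fit used the 5 libraries only, and the 2 interaction fits used 10 libraries each. Same-numbered polysomal and total libraries had the same sex and deviated together, with r of 0.339, 0.206 and 0.477 on day 7. Differently numbered day 7 pairs had r between -0.397 and 0.054. On day 5 there were 2 mice, so both pairs necessarily gave 1 value of r, 0.233, and both mice were male. The numbers were taken to pair the fractions, with less to show it on day 5. Day 5 and day 7 mice share only a number. The members and the 25 gene lists were chosen with earlier results of these data known, and lists are described by counts and medians, without a test. Named genes were, per direction, the 10 largest changes with a mean of at least 5 FPKM and no overlap between groups, of each list the 2 most abundant called genes per direction and the most abundant gene not called, and all partner genes. Others are said to be named after their values were seen. Alternatives were pseudocounts of 1 and 0.01, other filters, scalings and variance models, a correction for transcript length, the replicate block and leaving out each library. A correction for GC content and a sex term were added after seeing the data. Lengths came from the Gencode M21 annotation. The fit was first tested on simulated data. Some genes that the rule named are not reported here.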

Additional observations from a re-analysis of the deposited data

Results flagged for a closer look

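In 3 named genes, every library of the control polysomal comparison moved one way and every library of a companion comparison the other. Igf2 was higher on day 7 in all control polysomal libraries (56.4 and 64.7 and then 86.8, 73.2 and 76.1 FPKM, 0.38 ± 0.13) and lower in all control total libraries (99.7 and 112 and then 75.7, 70.9 and 85.9 FPKM, -0.45 ± 0.10), and the test of the difference gave an adjusted p of 0.147. Col1a2, a collagen chain of meningeal and vascular fibroblasts, was lower on day 7 in polysomal RNA (-0.49 ± 0.11, adjusted p = 0.0106) and higher in total RNA by 0.056, with an adjusted p of the difference of 0.147. Sparc, a matrix glycoprotein, was lower in all control polysomal libraries of day 7 by a margin that did not pass the test (-0.08 ± 0.11, adjusted p = 0.582) and higher in all SMA polysomal libraries (0.40), with an adjusted p of the difference of 0.336. Over all genes, 135 of 12976 moved in opposite directions in this way between the fractions and 221 of 12982 between control and SMA, without a test.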

How the results depend on the processing

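The count of genes changed in control polysomal RNA (4735) came to 1272 with the sex term, to 772 with a 2-fold minimum, and to between 1874 and 4820 without one library. In control total RNA (4094) the same alternatives gave 1679, 244 and between 1012 and 4565. The count of genes that differ between the fractions (0) was 6 with the GC correction, 1360 at an unadjusted p under 0.05 and between 0 and 436 without one library. The count that differ between SMA and control (0) was 1798 at an unadjusted p and between 0 and 470 without one library. Where leaving out a library left an age with 1 mouse, that mouse was assumed to vary like the others. The cause of these differences was not tested.

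The replicate block gave 5326 genes in polysomal RNA, 4466 in total RNA and 0 in both tests of a difference, where the block was the mouse for the fractions and the replicate number otherwise; day 5 and day 7 mice with the same number deviated together with r of 0.130 and 0.128 but are different mice. Of the 4735 genes, 1244 were also called with the sex term, 1816 without day 5 mouse 1 and 3947 after the length correction, and none had the other sign in any alternative run. The share of higher among called genes was 48.8%, 67.1% with the sex term, 66.3% without day 5 mouse 1, and between 47.6% and 49.3% with other scalings. Of 136 named genes, 106 were called, 57 of which lost the call with the sex term and 42 without day 5 mouse 1, and none of the 106 changed sign. Of those not called, up to 4 had the other sign under an alternative. Where the values of the ages did not overlap, leaving out a library or adding the sex term could not reverse a sign. For such genes an unchanged sign in those runs was set in advance and is no support. The table used here holds no counts, so counting error is unknown, and 2 of the 3 day 7 mice differ in sex from the day 5 mice.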

Other observations

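In the main comparison, clock genes had the highest median of the 25 lists (0.62). Partner genes were above them with the sex term (0.54, against 0.47) and without day 7 mouse 1 (0.59, against 0.54). Of the 16 clock genes tested, 9 were higher (56.2%, against 17.8% of all genes tested) and 1 lower. With the sex term 4 were called higher, and without day 5 mouse 1 there were 5. Clock itself, the partner of Bmal1 in the core loop, was at 8 and 9.56 FPKM on day 5 and 14.3, 15.99 and 12.4 FPKM on day 7 (0.69 ± 0.15, adjusted p = 0.00864), and the repressor Nr1d1 rose by 0.55 ± 0.13 (adjusted p = 0.0135). Per2, another repressor, fell by 0.84 (adjusted p = 0.0108), while its paralog Per1, named after its values were seen, rose by 1.44 ± 0.17. The hour at which the brains were taken is not given in the sources used here. Genes induced by glucocorticoids rose in 5 of 13 cases (38.5%, against 17.8% of all genes tested) and fell in 2 (15.4%, against 18.7%). Their median was 0.50. Mt1, which encodes the metal-binding protein metallothionein 1, was at 33.95 and 42.6 FPKM on day 5 and 144, 146 and 136 FPKM on day 7, with the day 7 mice close together (1.90 ± 0.13, adjusted p = 0.00023). Tsc22d3 (GILZ), a direct target of the receptor, fell by 0.64 (adjusted p = 0.00469), against the sign of the median. Of 19 immediate early genes 6 rose (31.6%, against 17.8% of all genes tested) and 2 fell (10.5%, against 18.7%), with a median of 0.11. The median was 0.04 with the sex term, where 6 were called higher and 0 lower. It was 0.25 after the length correction and between 0.08 and 0.45 when 1 library was left out. Nr4a2 and Nr4a3, nuclear receptors induced by activity, rose by 0.75 ± 0.12 and 0.84 ± 0.12, and Egr1, named after its values were seen, was at 1.41 and 1.41 FPKM on day 5 and 7.87, 8.52 and 4.47 FPKM on day 7. Its day 5 and day 7 values did not overlap.

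Collagen and basement membrane genes were lower in 8 of 39 cases (20.5%, close to the 18.7% of all genes tested) and higher in 1, with a median of -0.19. With the sex term 3 were called lower and the median was -0.05, and there were 4 lower without day 5 mouse 1 or day 7 mouse 2 and 13 after the length correction. Bgn (biglycan) was the gene that rose, from 5.37 and 6.17 to 13.7, 13.8 and 11.5 FPKM. Endothelial genes had 3 higher and 5 lower of 25 (12% and 20%), shares close to those of all genes tested. Cldn5, the main claudin of the blood-brain barrier, fell from 105 and 65.2 to 36.5, 34.8 and 43.1 FPKM (-1.12 ± 0.20, adjusted p = 0.00396), while the junction cadherin Cdh5 rose by 0.67 ± 0.14 (adjusted p = 0.00851). None of 12 pericyte and smooth muscle genes was called with limma, and at an unadjusted p under 0.05 there were 2 higher and 2 lower. Cholesterol genes had 4 higher and 5 lower of 25 (16% and 20%), also close to all genes. Dhcr7, which makes cholesterol in the last step of its pathway, rose by 0.89 ± 0.13 and Fdps, an early enzyme, fell by 0.81 (adjusted p = 0.00221 and 0.0156). Choroid plexus and ependymal genes fell in 6 of 13 cases (46.2%, against 18.7% of all genes tested) and rose in 1 (7.69%, against 17.8%). Erythroid genes changed in both directions (1 of 7 each, 14.3%, below the same 17.8% and 18.7%). The neurofilament list of 6 genes also held Vim and Prph (peripherin), which were its 2 lower genes (33.3%, against 18.7%). Its 2 higher genes were Ina and Nefh (33.3%, against 17.8%), and no neurofilament chain was called lower. With the sex term, the choroid plexus and ependymal list had 3 lower and 0 higher, the endothelial list 2 higher and 1 lower, and the cholesterol list 1 higher and 2 lower. Without day 5 mouse 1, these lists had 2 lower and 0 higher, 1 and 1, and 1 higher and 2 lower. The endothelial list had 2 lower without day 7 mouse 1 or 2 and 6 higher after the length correction, and the cholesterol list had 8 lower without day 5 mouse 2, 3 without day 7 mouse 1 and 2 without day 7 mouse 2.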
